A study of Mus musculus with 45 samples.

Results

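The immediate early response genes Fos, Fosb, Jun, Junb, Jund, Egr1, Atf3, Dusp1, Btg2 and Ier3 were followed by name through 45 tumours. These 10 genes were picked as known early response genes and stand among 47729 genes listed in each of 2 expression tables. All 10 passed the filter on low values, which kept 15070 genes in experiment T2106 and 14914 in experiment T2215. Each tumour was a subcutaneous graft of CT26, a BALB/c mouse line labelled as undifferentiated colon carcinoma. The hosts were HuGEMM mice on the BALB/c background, in which human PD-1 and human TIGIT were knocked in. The vehicle mice carried both human genes too, and the labels give no age or sex.

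T2106 held 6 groups of 3 tumours: vehicle (saline), pembrolizumab + tiragolumab, HLX53, serplulimab, and serplulimab with HLX53, the latter dosed at either 5 or 10 mg/kg. The 9 groups of 3 in T2215 were vehicle, pembrolizumab, serplulimab, HLX53 and tiragolumab alone, and the 4 pairs of a PD-1 antibody with a TIGIT antibody. Pembrolizumab and serplulimab bind PD-1, and tiragolumab and HLX53 are directed at TIGIT; all were dosed at 10 mg/kg apart from the lower HLX53 dose. Injections were given 2 times a week from day 8. How long after the last injection tumours were collected is not stated in the labels. The labels give each sample a code of its own without saying that it names a mouse, so the unit is the tumour. P-values of group comparisons use the spread between tumours within groups, pooled over all groups of an experiment.

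Immediate early genes are transcribed within minutes of a signal without new protein synthesis, and most of their transcripts are short-lived. Growth factors acting through the MAP kinases, cytokines and cell stress induce them through factors bound at their promoters, such as SRF with its ternary complex partners and CREB. Fos, Fosb, Jun, Junb and Jund encode subunits of the AP-1 dimer, and Atf3 is a stress-induced bZIP factor that can pair with Jun proteins. Egr1 encodes a zinc finger factor downstream of ERK signalling. Dusp1 is a phosphatase that inactivates MAP kinases, Btg2 an antiproliferative protein that promotes mRNA deadenylation, and Ier3 a stress-inducible survival regulator. In a tumour, malignant, stromal and immune cells all express such genes. In bulk tissue, fewer cells of a type and less RNA per cell cannot be told apart.

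RefSeq start-site windows on GRCm38.p6 were found for 9 of the 10 genes. The 250 bases before the start are shown for Fos and Btg2, whose levels followed each other most closely, and for Jun and Junb, which followed other patterns. Capitals mark matches to the cAMP response element TGACGTCA or its half-site TGACG, to CCAAT and to TATAAA, searched on both strands; the half-site overlaps the full element. The Fos window is chr12:85473640-85473889 on the plus strand. The others are on the minus strand, at chr1:134079156-134079405 for Btg2, chr4:95052223-95052472 for Jun and chr8:84978749-84978998 for Junb.
Fos: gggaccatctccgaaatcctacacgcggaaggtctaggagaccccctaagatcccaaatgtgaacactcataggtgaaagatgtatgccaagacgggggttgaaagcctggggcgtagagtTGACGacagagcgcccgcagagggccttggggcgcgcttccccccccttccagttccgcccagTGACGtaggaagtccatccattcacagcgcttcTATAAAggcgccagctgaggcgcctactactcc
Btg2: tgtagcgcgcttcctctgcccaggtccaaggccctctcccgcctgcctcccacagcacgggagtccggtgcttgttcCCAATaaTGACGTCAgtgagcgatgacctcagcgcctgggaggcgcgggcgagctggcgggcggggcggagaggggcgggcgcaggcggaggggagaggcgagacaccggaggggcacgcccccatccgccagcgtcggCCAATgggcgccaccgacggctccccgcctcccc
Jun: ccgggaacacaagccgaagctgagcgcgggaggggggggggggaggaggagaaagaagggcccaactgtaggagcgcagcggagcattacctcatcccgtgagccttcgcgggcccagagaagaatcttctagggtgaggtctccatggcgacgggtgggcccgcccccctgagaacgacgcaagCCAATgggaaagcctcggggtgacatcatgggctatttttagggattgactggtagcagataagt
Junb: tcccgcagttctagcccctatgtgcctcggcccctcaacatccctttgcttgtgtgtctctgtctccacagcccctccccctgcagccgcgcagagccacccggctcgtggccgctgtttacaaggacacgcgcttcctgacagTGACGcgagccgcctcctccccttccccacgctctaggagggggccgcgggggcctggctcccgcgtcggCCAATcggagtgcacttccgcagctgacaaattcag

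A full cAMP response element lay 166 bases before the Btg2 start and another 143 bases before the Dusp1 start. Of 32851 RefSeq windows of the same length, 1.55% held the full element and 17.8% the half-site. Fos held half-sites 129 and 66 bases before its start and TATAAA at 33 bases. Half-sites were also found 106 bases before Junb, 60 before Fosb and 7 before Atf3. CCAAT, present in 33.8% of windows, lay at 173 and 34 bases in Btg2, 65 in Jun, 36 in Junb, and 244 and 175 in Ier3. TATAAA was present in 12.4% of windows. The AP-1 element TGANTCA, held by 6.75% of windows, the CArG box of SRF, held by 1.47%, and the EGR element GCGTGGGCG, held by 0.536%, had no match in these 9 windows, which says nothing of elements farther out. The Jund window (chr8:70697489-70697738, plus strand) ended well before the annotated gene start at 70698949, so it does not describe the bases next to that start. The Dusp1 (chr17:26508473-26508722) and Atf3 (chr1:191183334-191183583) windows, both on the minus strand, lay inside the annotated genes. They belong to RefSeq starts far from the annotated starts at 26562128 and 191218039. A match describes letters, not a bound site.

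In the GENCODE annotation of GRCm38, Fos is a gene of 4 exons at chr12:85473890-85477273, and Btg2 one of 2 exons at chr1:134075170-134079120. Neither overlaps another annotated gene. Jun (chr4:95049034-95052222) meets the antisense gene Junos, Junb (chr8:84974484-84978718) meets Prdx2 on the other strand, and Jund (chr8:70698949-70700616) meets the antisense Gm11175. Dusp1 (chr17:26505590-26562128) overlaps 4 annotated genes, among them the protein-coding Ergic1 on the other strand and the pseudogene AC122252.4 on its own strand, and Atf3 (chr1:191170296-191218039) overlaps Gm24748 on the other strand. The labels do not say whether counting used strand, so reads of these overlapping genes may not be separable.

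Per kilobase, the most abundant members were Junb and Egr1. In T2106 the mean over 18 tumours was 120 FPKM for Junb and 88.1 FPKM for Egr1, then 58.2 for Ier3, 52.0 for Jun and 46.1 for Jund. Dusp1 (23.1 FPKM), Fos (18.2), Atf3 (14.0) and Btg2 (11.4) were lower, and Fosb was lowest at 3.29 FPKM. FPKM scales fragments to transcript length and library size. In T2215 the means ran from 107 FPKM for Junb to 3.24 for Fosb.

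The genes differed in how much they varied. In T2106 the highest tumour exceeded the lowest 19.1 times for Atf3, 10.4 times for Fos, 7.34 times for Egr1 and 6.76 times for Btg2, but 1.86 times for Jun. The Atf3 ratio rested on vehicle replicate 2, at 1.68 FPKM. The next lowest Atf3 value, in vehicle replicate 3, was 7.82 FPKM. By the SD of log2(FPKM + 0.5), Fos stood at percentile 94.7 of the genes tested in T2106 and 91.4 in T2215. Jun stood at percentile 32.9 and 10.5.

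CT26 marker levels were checked against the label. Vil1, a microvillus protein of intestinal epithelium, was below 0.1 FPKM in 16 of 18 and 24 of 27 tumours, and the intestinal factor Cdx2 reached at most 0.331 and 0.638 FPKM. Krt18 ranged from 8.52 to 40.8 FPKM in T2106 and from 4.49 to 42.7 in T2215. Other genes of the same list of 7 were detected: Cdh17, an intestinal cadherin, was at 0.651 to 2.36 and 0.287 to 2.49 FPKM, Krt8 reached 40.4 and 27.8 FPKM, and Epcam reached 10.2 and 11.02 FPKM. Vil1 and Cdx2 were thus near 0 while the other epithelial genes were not uniformly low, in grafts labelled undifferentiated. Pearson's r between replicate libraries ranged from 0.829 to 0.992, and no libraries were identical. Skeletal muscle markers summed to 10 FPKM or more in 4 libraries. These were T2106 serplulimab + HLX53 5 mg/kg replicate 2 (58.2 FPKM), T2215 serplulimab replicate 1 (15747), T2215 serplulimab + tiragolumab replicate 2 (54.2) and T2215 pembrolizumab + tiragolumab replicate 3 (198).

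The first comparison asked how combined PD-1 and TIGIT antibody treatment at full dose differed from vehicle in T2106. Fos, Btg2, Atf3, Dusp1 and Jund were higher, and Egr1 and Jun lower, with serplulimab + HLX53 10 mg/kg. The early response genes did not move as a block: 5 of 10 rose, 2 fell, and Fosb, Junb and Ier3 did not pass the test. In this comparison 44.0% of all genes tested passed (6633 of 15070; 23.4% higher and 20.6% lower), so a call by itself sets no gene apart. The median log2 change was 0.45 over the 10 genes and −0.04 over all genes tested.

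Fos, an inducible AP-1 subunit, was at 6.70, 6.39 and 8.37 FPKM in the 3 vehicle tumours and at 51.0, 20.5 and 47.5 FPKM with serplulimab + HLX53 10 mg/kg. The lowest treated tumour lay above the highest vehicle tumour. The means were 39.7 ± 16.7 (SD, n = 3) and 7.15 ± 1.07 FPKM (SD, n = 3), a log2 change of 2.30 ± 0.56 (SE), with an adjusted p of 0.012 by limma.

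Jund, the AP-1 subunit most often described as constitutive, was at 34.5, 39.1 and 33.6 FPKM in vehicle and at 52.0, 45.1 and 48.7 FPKM after treatment. The groups did not overlap although the difference was small, 0.44 ± 0.12 on the log2 scale (limma adjusted p = 0.0169). Jun, the classical Fos partner, went the other way. It was at 49.4, 54.5 and 54.2 FPKM in vehicle and 33.2, 44.2 and 36.0 FPKM after treatment, with no overlap. Its log2 change was −0.48 ± 0.13 (limma adjusted p = 0.0146).

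Junb was at 97.5, 84.0 and 102 FPKM in vehicle and 118, 94.6 and 121 FPKM after treatment, and the groups overlapped. Its log2 change of 0.23 had a 95% interval from −0.15 to 0.61. Fosb was at 3.20 ± 0.31 FPKM (SD, n = 3) in vehicle and 2.80 ± 0.41 FPKM (SD, n = 3) after treatment, also overlapping. AP-1 subunits of the Fos and Jun families were therefore found higher, lower and within the spread in the same tumours.

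Egr1 was at 94.2, 103 and 110 FPKM in the vehicle tumours and at 25.6, 42.5 and 31.0 FPKM with serplulimab + HLX53 10 mg/kg. All 3 treated tumours lay far below the vehicle range. The log2 change was −1.65 ± 0.50 (limma adjusted p = 0.0218). Fos and Egr1, both textbook targets of ERK signalling, thus changed in opposite directions.

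Btg2 was at 5.75, 5.11 and 6.11 FPKM in vehicle and at 29.7, 15.4 and 24.0 FPKM after treatment. As for Fos, replicate 2 was the lowest treated tumour and still above vehicle. The log2 change was 1.89 ± 0.47 (limma adjusted p = 0.0127). Atf3 was at 9.23, 1.68 and 7.82 FPKM in vehicle, where replicate 2 was far below the others, and at 25.8, 12.2 and 18.7 FPKM after treatment. Its log2 change was 1.73 ± 0.52 (limma adjusted p = 0.0202). Dusp1 rose from 19.4, 10.4 and 15.5 FPKM to 32.3, 22.8 and 32.4 FPKM, a log2 change of 0.95 ± 0.26 (limma adjusted p = 0.0155).

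Ier3 was at 58.2, 13.3 and 41.4 FPKM in vehicle and 40.9, 38.7 and 53.1 FPKM after treatment. Vehicle replicate 2 was the lowest of all 18 tumours for Ier3, as it was for Atf3, Dusp1 and Junb. The log2 change of Ier3 was 0.45 with a 95% interval from −0.39 to 1.30.

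The calls rested on particular libraries. Without treated replicate 1, or without treated replicate 3, 0 of 10 members passed, where 3.35% and 6.40% of all genes did; the log2 change of Fos was then 2.06 (limma adjusted p = 0.0601) and 2.11 (limma adjusted p = 0.0521). Without vehicle replicate 2, 4 passed, Fos, Btg2, Jund and Jun, against 25.1% of all genes.

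**Figure D1:**
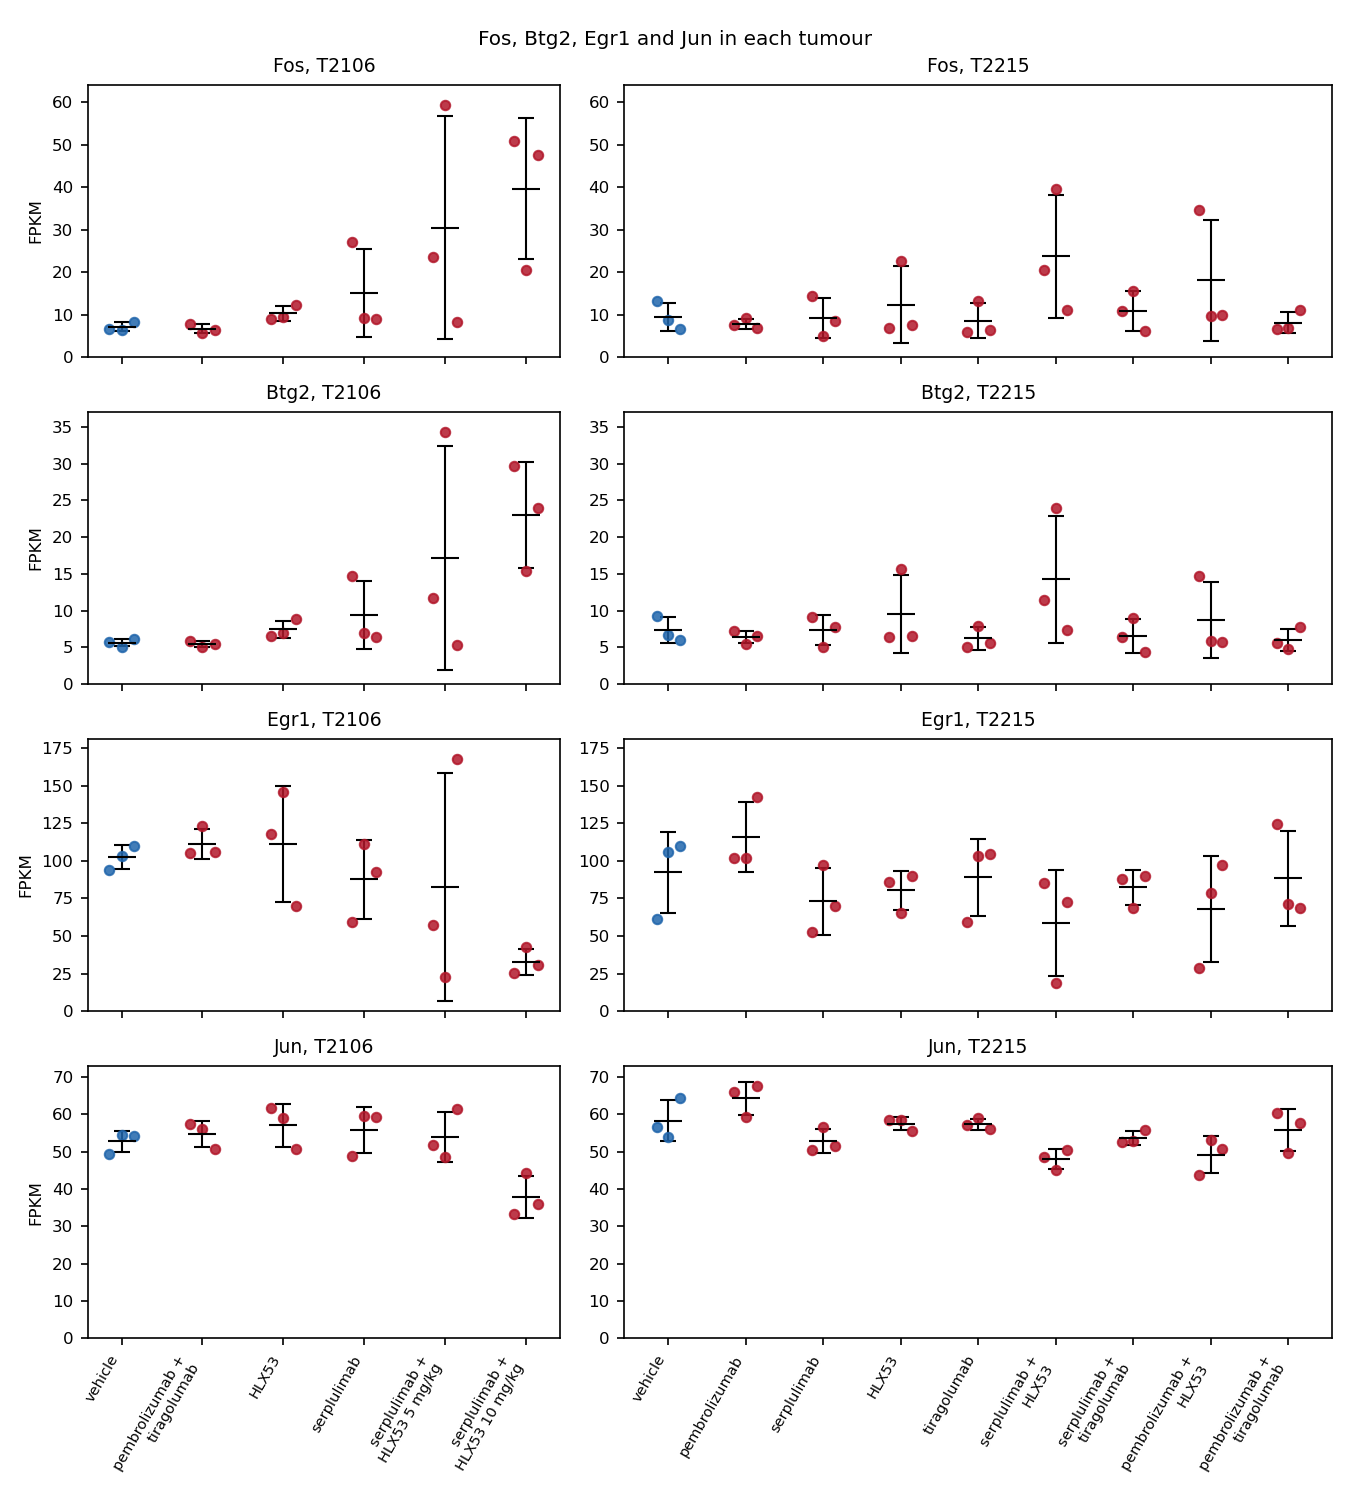
FPKM of Fos, Btg2, Egr1 and Jun (linear axes from 0) in each tumour by treatment group, T2106 left and T2215 right; points are tumours (blue vehicle, red treated), horizontal bars the group mean and error bars 1 SD (n = 3). In T2106 the serplulimab + HLX53 10 mg/kg tumours sit above vehicle for Fos (20.5 to 51.0 FPKM) and Btg2 and below it for Egr1 (25.6 to 42.5 FPKM) and Jun.

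Serplulimab + HLX53 at the lower HLX53 dose of 5 mg/kg gave tumours that differed widely from each other. Fos was at 23.5, 59.5 and 8.38 FPKM, and Egr1 at 57.3, 22.9 and 168 FPKM. Replicate 2 had the highest Fos and the lowest Egr1 of the 18 tumours, and replicate 3 the highest Egr1 with Fos just above the highest vehicle tumour. Btg2 was at 11.7, 34.3 and 5.37 FPKM, in the same order as Fos.

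Against vehicle, Jund alone passed, at 52.7, 68.0 and 71.0 FPKM against 34.5, 39.1 and 33.6 FPKM. Its log2 change was 0.82 ± 0.12 (limma adjusted p = 0.0134), and the groups did not overlap. That is 1 of 10 members, where 1.02% of all genes passed (154 of 15070). Dusp1 (0.98 ± 0.26, limma adjusted p = 0.0632) and Junb (0.62 ± 0.18, limma adjusted p = 0.0747) missed the threshold, although the treated tumours lay above vehicle. The Fos change was 1.62 ± 0.56 (limma adjusted p = 0.102).

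The count depended on single tumours here too. Leaving out replicate 3 gave 6 members past the threshold, Fos (2.32), Atf3 (2.14), Btg2 (1.75), Dusp1 (1.10), Jund (0.74) and Egr1 (−1.48), but 40.4% of all genes then passed. Leaving out replicate 1 gave 3, Jund, Junb and Dusp1, against 5.95% of all genes. Leaving out vehicle replicate 1 or 3 gave 0. Without replicate 2, the library with muscle markers, Jund remained at 0.77 (limma adjusted p = 0.0475).

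Between the 10 mg/kg and 5 mg/kg HLX53 doses, each with serplulimab, 0 of 10 members passed, against 0.139% of all genes. Jun, Jund and Junb, all lower at 10 mg/kg, had an unadjusted limma p below 0.05. At that cut 1653 of all 15070 genes passed. Jun was lower at the higher dose in all tumours, 33.2 to 44.2 FPKM against 48.7 to 61.5 FPKM, with a log2 difference of −0.51 ± 0.13 (limma adjusted p = 0.172). Jund, called higher than vehicle at both doses, was also lower at the higher dose without overlap, 45.1 to 52.0 FPKM against 52.7 to 71.0 FPKM, a log2 difference of −0.38 ± 0.12 (limma adjusted p = 0.310). Without 5 mg/kg replicate 2, which carried muscle markers, 4 members passed: Btg2 (1.42) and Fos (1.36) higher, and Egr1 (−1.59) and Jun (−0.58) lower, at 10 mg/kg. In that fit 38.9% of all genes passed.

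None of the 10 genes passed for single agents or pembrolizumab + tiragolumab in T2106. Among all genes 0% passed for serplulimab, 0% for pembrolizumab + tiragolumab and 0.00664% for HLX53. At an unadjusted limma p below 0.05 there were 4, 1 and 3 of the 10 genes, and 1280, 774 and 582 of all 15070. The same 3 vehicle tumours served all these comparisons, including vehicle replicate 2 with its low Atf3, Dusp1 and Ier3.

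In serplulimab tumours 7 of the 10 genes lay above the vehicle range and none below, where the ranges of 22.9% of all genes did not overlap (6.24% higher). The 7 were Fos, Junb, Jund, Atf3, Dusp1, Btg2 and Ier3. Ier3 was at 63.1, 92.2 and 77.4 FPKM, a log2 change of 1.25 with a 95% interval from 0.40 to 2.10 (limma adjusted p = 0.471). Atf3 was at 18.2, 14.4 and 13.8 FPKM, a log2 change of 1.50 with an interval from 0.40 to 2.61 (limma adjusted p = 0.497). Fos at 27.1 FPKM and Btg2 at 14.8 FPKM were high in replicate 1, while the other tumours were close to 9 FPKM for Fos. Egr1 was lowest in that same replicate, at 59.2 FPKM against 111 and 92.5 FPKM.

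In HLX53 tumours 6 members lay above the vehicle range (Fos, Fosb, Junb, Jund, Dusp1 and Btg2), against 15.6% of all genes with no overlap in either direction (5.33% higher). Fos was at 9.05, 9.49 and 12.4 FPKM, just above the vehicle maximum, with a log2 change of 0.49 (95% interval −0.70 to 1.69). With pembrolizumab + tiragolumab, 3 members lay above the vehicle range, Fosb, Junb and Atf3, against 23.8% of all genes (7.41% higher). Fos there was at 7.84, 5.71 and 6.49 FPKM, overlapping the vehicle range, with a log2 change of −0.09 (95% interval −1.29 to 1.10). By the same rule the 2 serplulimab + HLX53 groups had 4 members outside the vehicle range at 5 mg/kg, against 22.2% of genes, and 7 at 10 mg/kg, against 65.2%.

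Ordered by mean Fos, the T2106 groups ran from serplulimab + HLX53 10 mg/kg (39.7 FPKM) through serplulimab + HLX53 5 mg/kg (30.4), serplulimab (15.05), HLX53 (10.3) and vehicle (7.15) to pembrolizumab + tiragolumab (6.68). The ranges of neighbours overlapped except for HLX53 and vehicle. Mean Egr1 ran from 111 FPKM with pembrolizumab + tiragolumab down to 33.0 FPKM with serplulimab + HLX53 10 mg/kg, and each neighbouring pair of ranges overlapped.

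**Figure D2:**
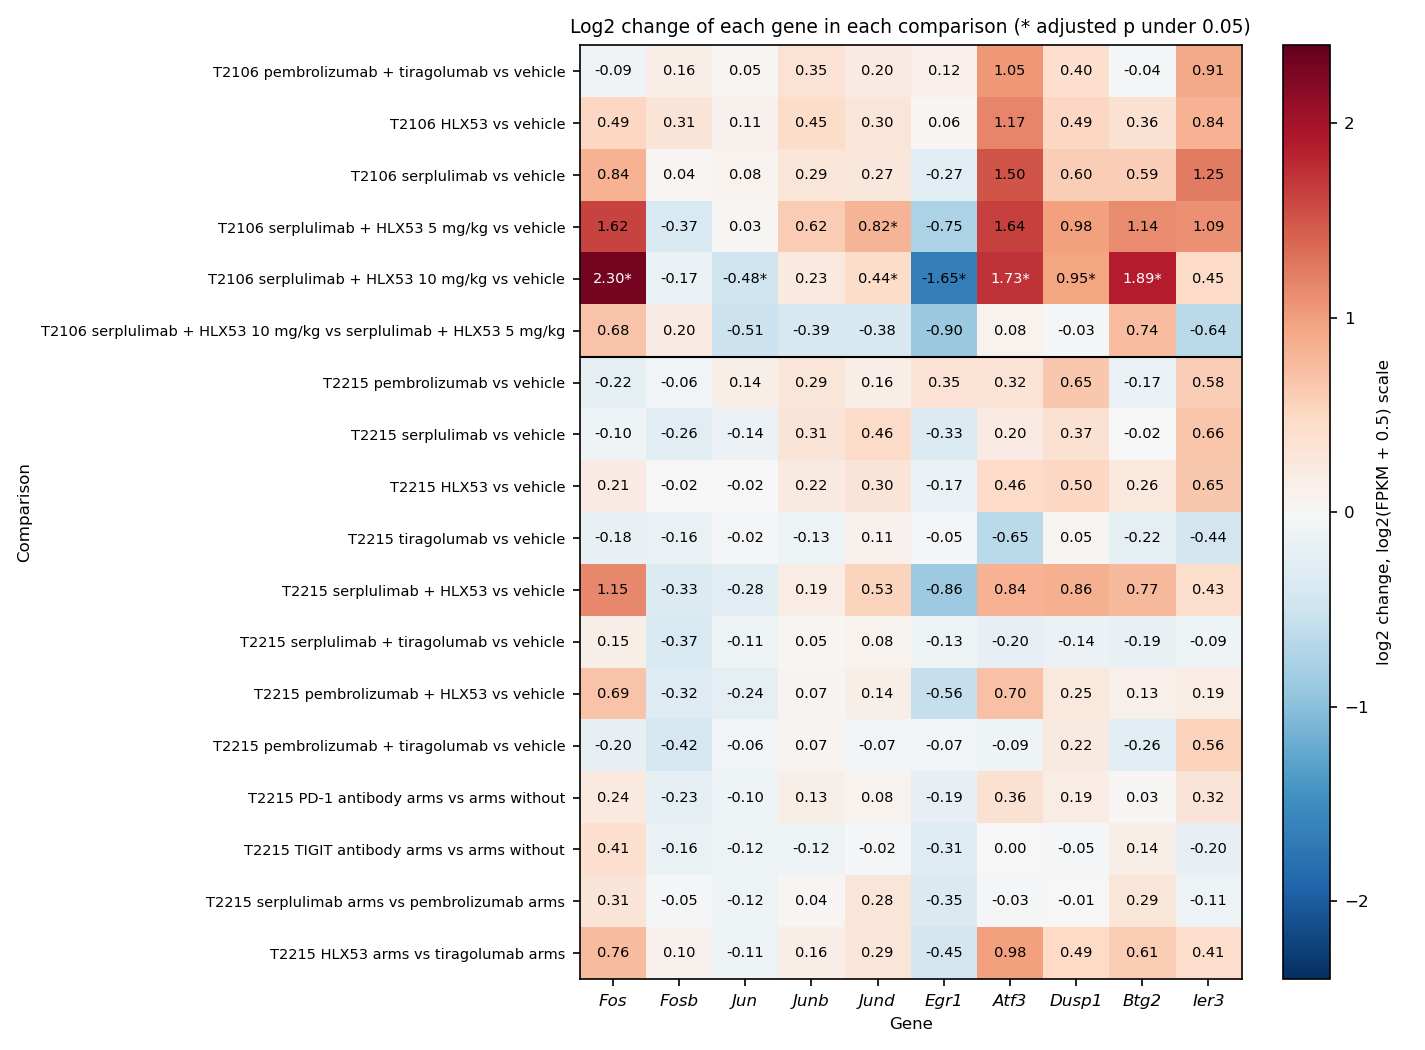
Log2 change, on the log2(FPKM + 0.5) scale, of each gene (columns) in each of 18 comparisons (rows; T2106 above the line, T2215 below); colour and number give the change, and an asterisk an adjusted p under 0.05 by limma. Asterisks stand in the 2 rows of serplulimab + HLX53 against vehicle in T2106, 7 at 10 mg/kg and 1 at 5 mg/kg.

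The T2215 experiment repeated serplulimab + HLX53, both at 10 mg/kg, and 0 of 10 members passed against vehicle. The background was 0% of 14914 genes. At an unadjusted limma p below 0.05 there were 4 members and 2729 of all genes. Fos was at 20.5, 39.6 and 11.2 FPKM against 13.1, 8.66 and 6.71 FPKM in vehicle, and the groups overlapped. The log2 change was 1.15 ± 0.54 (limma adjusted p = 0.267). Egr1 was at 85.4, 18.7 and 72.5 FPKM against 61.6, 106 and 110 FPKM, with a log2 change of −0.86 (95% interval −1.83 to 0.10). Replicate 2 had the highest Fos and the lowest Egr1 of all 27 tumours.

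Jund (56.8, 64.6 and 47.1 FPKM), Atf3 (21.0, 17.1 and 12.4) and Dusp1 (24.0, 37.2 and 28.7) lay above their vehicle ranges, and Jun (48.4, 45.0 and 50.3 FPKM) below its range. These 4 of 10 compare with 24.0% of all genes whose ranges did not overlap (8.11% higher, 15.9% lower). The log2 changes were 0.53 ± 0.16 for Jund, 0.86 ± 0.30 for Dusp1, 0.84 ± 0.52 for Atf3 and −0.28 ± 0.09 for Jun (limma adjusted p of 0.239, 0.239, 0.355 and 0.239).

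The effects of the 4 treatments given in both experiments were compared by relabelling tumours within each experiment. Over 40 differences the smallest exact two-sided permutation p was 0.09, with 400 relabellings, and its adjusted value was 0.972. With 400 relabellings and 40 tests, no single difference could have passed the adjustment on its own. The relabelling takes both effects as absent, so a real effect in either experiment widens its spread. A high p therefore does not show that the effects were equal. For serplulimab + HLX53 the Fos changes were 2.30 in T2106 and 1.15 in T2215. The tables were normalised separately, so levels were not compared between them.

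In the other T2215 groups 0 of 10 members passed against vehicle. The background was 0% for pembrolizumab, 0% for serplulimab, 0% for HLX53, 0% for tiragolumab and 0% for serplulimab + tiragolumab. It was 0.00671% for pembrolizumab + HLX53 and 0.0134% for pembrolizumab + tiragolumab. By unadjusted limma p below 0.05, 1 member each was found for pembrolizumab, serplulimab and pembrolizumab + HLX53, and 0 for the other 4. At that cut 150, 1842 and 959 of all 14914 genes passed for these treatments, in that order. For HLX53, tiragolumab, serplulimab + tiragolumab and pembrolizumab + tiragolumab the gene counts were 201, 140, 150 and 655. Single tumours stood out instead. Fos reached 34.6 FPKM in pembrolizumab + HLX53 replicate 1, against 9.69 and 9.96 FPKM in its group, and 22.7 FPKM in HLX53 replicate 2, against 6.84 and 7.57 FPKM. Egr1 was 28.8 FPKM in the former, against 78.4 and 97.3 FPKM, and 65.3 FPKM in the latter, against 85.9 and 89.7 FPKM.

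Ordered by mean Fos, serplulimab + HLX53 (23.7 FPKM), pembrolizumab + HLX53 (18.1) and HLX53 (12.4) were the top 3 of the 9 T2215 groups, and pembrolizumab (7.86) was the lowest. The ranges of all neighbours in that order overlapped. Mean Egr1 ran from 116 FPKM with pembrolizumab to 58.9 FPKM with serplulimab + HLX53, again with overlap at each step.

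Junb, Ier3 and Atf3 shared their lowest T2215 tumour, tiragolumab replicate 1, at 70.4, 17.5 and 2.79 FPKM. Vehicle replicate 1 was next for Junb (73.1 FPKM) and Ier3 (20.8 FPKM). Over the 27 tumours Junb reached 131 FPKM (median 106), Ier3 91.4 FPKM (median 52.2) and Atf3 24.7 FPKM (median 10.3). Fosb stayed between 2.06 and 4.84 FPKM (median 3.24).

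Averaged over arms in T2215, 0 of 10 members passed for PD-1 antibody (background 0%), for TIGIT antibody (0.0134%), for serplulimab against pembrolizumab arms (0%) or for HLX53 against tiragolumab arms (0%). The members with an unadjusted limma p below 0.05 numbered 1, 1, 2 and 6. At that cut 1085, 987, 1418 and 3964 of all 14914 genes passed. In the 9 HLX53 tumours Fos averaged 18.1 ± 12.2 FPKM (SD), against 9.20 ± 3.59 in the 9 tiragolumab tumours. The log2 difference was 0.76 with a 95% interval from 0.11 to 1.40 (limma adjusted p = 0.160). Atf3 differed by 0.98 (0.36 to 1.60), Btg2 by 0.61 (0.12 to 1.10), Dusp1 by 0.49 (0.12 to 0.85) and Jund by 0.29 (0.09 to 0.48), each with a limma adjusted p of 0.155. Jun went the other way, at −0.11 (−0.22 to −0.0035; limma adjusted p = 0.180). The ranges of the 2 sets of tumours overlapped for each of these genes.

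Across tumours, Btg2 followed Fos and Egr1 ran against it. In T2106, Fos had a gap between 27.1 and 47.5 FPKM that set 3 serplulimab + HLX53 tumours apart, so relations were computed in the other 15, a choice made after seeing the data. There Pearson's r between Fos and Btg2 was 0.969 (permutation test, p adjusted over 18 relations = 9e-05) and Spearman's rho 0.950 (adjusted permutation p = 9e-05). For Egr1 r was −0.788 (adjusted permutation p = 0.0069), while rho was −0.468 (adjusted permutation p = 0.146). Atf3 passed by rho (0.725, adjusted permutation p = 0.0143) and not by r (0.540, adjusted permutation p = 0.102).

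In the 27 tumours of T2215, r with Fos was 0.933 for Btg2, 0.649 for Atf3, 0.563 for Jund and 0.550 for Dusp1, and −0.759 for Egr1 and −0.624 for Jun. Each passed a permutation test by r, with adjusted p of 0.00426 or less, and by rho (0.874, 0.648, 0.469, 0.514, −0.550 and −0.465), with adjusted p of 0.0248 or less. Without the 2 tumours farthest from the Fos median, r was 0.885 for Btg2 and 0.597 for Atf3, both past the threshold (adjusted permutation p = 9e-05 and 0.00783). It was −0.449 for Egr1, −0.367 for Jun, 0.385 for Jund and 0.392 for Dusp1, with unchanged signs but none past it. The calls of these 4 thus depended on those 2 tumours. Junb (0.165), Ier3 (0.138) and Fosb (−0.227) showed no relation with Fos that passed. Taken as deviations from group means, r was 0.958 for Btg2 and −0.698 for Egr1.

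Among the other 36 pairs, tested in both experiments after seeing the data (72 relations), Junb followed Ier3. Their r was 0.915 in T2215 (rho 0.876; adjusted permutation p = 0.00036 for both) and 0.682 in the 15 T2106 tumours (rho 0.739; adjusted permutation p = 0.0405 and 0.0101). Without the 2 tumours farthest from the Junb median it was 0.852 and 0.818. Jun followed Egr1, with r of 0.725 in T2215 (rho 0.580; adjusted permutation p = 0.00036 and 0.00962) and 0.819 in T2106 (rho 0.743; adjusted permutation p = 0.00122 and 0.0101). Without the 2 tumours farthest from the Jun median these were 0.550 and 0.730. Atf3 and Dusp1 had r of 0.774 in T2215 (rho 0.809; adjusted permutation p = 0.00048 and 0.00036). In T2106 their r of 0.846 fell to 0.337 without the 2 farthest tumours, and rho of 0.504 did not pass (adjusted permutation p = 0.135). Over all tumours of each experiment, 30 of 45 pairs had a positive r in both experiments, 12 a negative r in both, and 3 opposite signs.

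**Figure D3:**
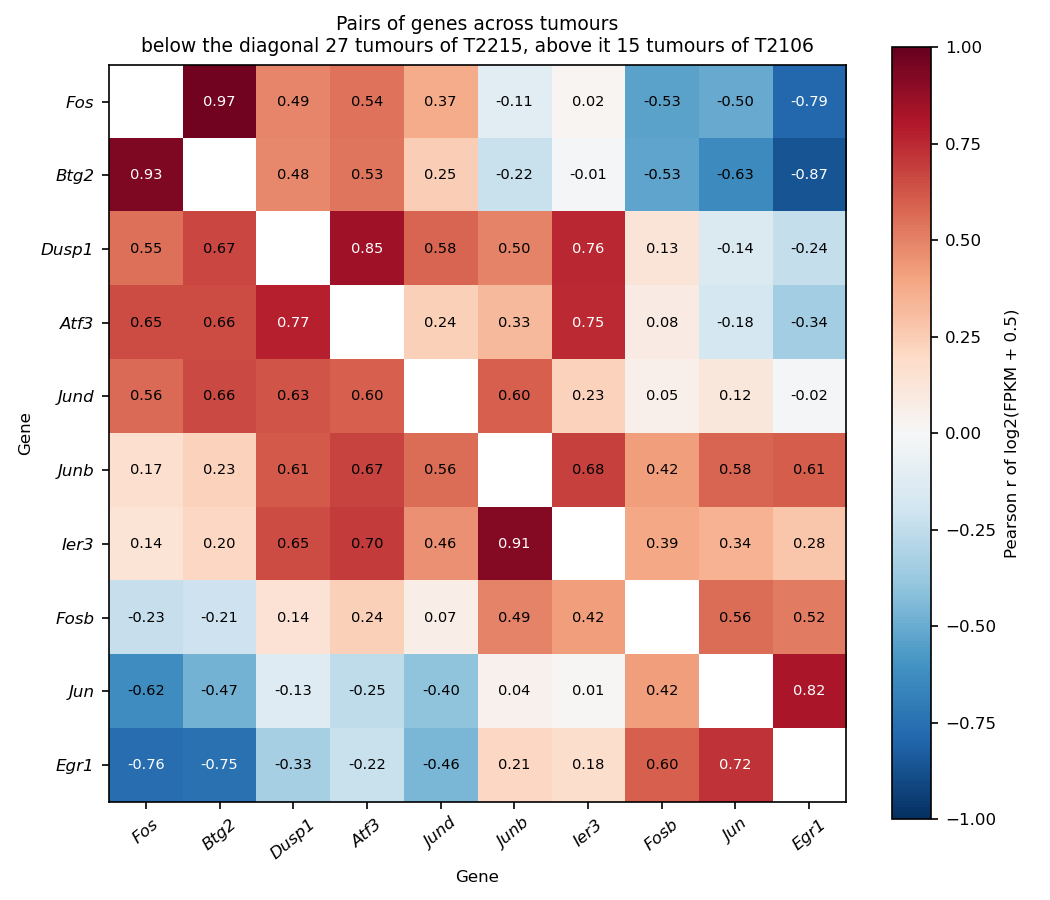
Pearson's r of log2(FPKM + 0.5) for each pair of genes across tumours; below the diagonal the 27 tumours of T2215, above it the 15 tumours of T2106 below the gap in Fos, with colour and number giving r. Fos and Btg2 (0.93 and 0.97), Junb and Ier3 (0.91 and 0.68) and Jun and Egr1 (0.72 and 0.82) are positive pairs, and Fos and Egr1 (−0.76 and −0.79) a negative one.

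The genes outside the 10 whose levels were most like Fos over the 27 T2215 tumours were Fyn, a Src family kinase (r = 0.972), Vopp1 (0.968), Ucp2, a mitochondrial carrier (0.966), Cd53, a leukocyte tetraspanin (0.964), and Slc37a2 (0.963). Over the 18 T2106 tumours their r with Fos was 0.979, 0.992, 0.964, 0.960 and 0.959. Most like Egr1 were Hbegf, a ligand of the EGF receptor (0.933), Tfap2a (0.926), Sox2 (0.923), Spry4, an inhibitor of MAP kinase signalling (0.922), and Tspan9 (0.921). Their r with Egr1 in T2106 was 0.960, 0.938, 0.907, 0.951 and 0.867. These are descriptions of the closest of 14904 genes ranked, with tumours of all groups together, and carry no test.

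Cell type markers moved alongside. In T2106 the sum of the 6 fibroblast markers (Col1a1, Col1a2, Col3a1, Dcn, Lum and Pdgfra) ran from 420 to 638 FPKM in vehicle, from 596 to 6422 with serplulimab + HLX53 5 mg/kg and from 2978 to 4703 with serplulimab + HLX53 10 mg/kg. All 6 were higher at 10 mg/kg, as were 6 of 6 neutrophil markers (19 to 37 FPKM in vehicle, 365 to 1212 FPKM treated, summed) and 6 of 6 macrophage markers (559 to 736 FPKM, then 1406 to 2500). The 6 adipocyte markers, all higher, summed to 46 to 333 FPKM in vehicle and 1551 to 1765 FPKM treated. Higher too were 4 of 6 endothelial markers, 2 of 6 T cell markers, 5 of 6 skin keratinocyte markers and 4 of 5 tested epithelial markers. Among all genes tested 23.4% were called higher in this comparison. No erythrocyte marker (0 of 5) and no tested skeletal muscle marker (0 of 2) passed, and of 6 heat shock chaperones 1 rose, Hspb1. Krt5, a defining skin marker, averaged 0.132 FPKM in vehicle and 4.32 FPKM treated. Krt5, Krt14 and the adipocyte marker Lep were below 0.1 FPKM in 11 of 18 T2106 tumours, Dsp in 13, and Krt15 and Krt17 in 14. Such genes could pass the filter on low values through the treated group, so their calls add no support.

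At 10 mg/kg the marker sums of fibroblasts, neutrophils, macrophages and adipocytes did not overlap those of vehicle. The T cell sums (20.7 to 30.1 FPKM in vehicle, 44.5 to 111 FPKM treated) did not overlap either. Endothelial sums (37.4 to 71.2, then 126 to 172 FPKM) and those of skin keratinocytes and epithelium were also apart. The part of any of these cell types in the early gene result and that of treatment cannot be told apart there. Of the cell type lists, only the fibroblast list was related to the early genes across tumours. Its r values therefore do not set fibroblasts apart from other cell types. In T2215 the fibroblast mean had an r of 0.851 with Fos (rho 0.790), 0.818 with Btg2 (rho 0.744), −0.758 with Egr1 (rho −0.639) and −0.643 with Jun (rho −0.547) over 27 tumours. The adjusted permutation p over 20 relations was 6.7e-05, 6.7e-05, 0.0001 and 0.00085 for r, and 0.0121 or less for rho. Without the 2 tumours farthest from the marker median, r was 0.836, 0.795, −0.666 and −0.554. These markers also set 4 high tumours apart, and within the other 23 Fos (r 0.692, rho 0.674; adjusted permutation p = 0.006 and 0.0122) and Btg2 (r 0.586, rho 0.601; adjusted permutation p = 0.033 and 0.0309) still passed. Jun passed by r (−0.567, adjusted permutation p = 0.0339) and not by rho (−0.481, adjusted permutation p = 0.144). Egr1 passed by neither r (−0.463, adjusted permutation p = 0.132) nor rho (−0.442, adjusted permutation p = 0.183). The sign for Egr1 was unchanged, but its call depended on the 4 high tumours. For Junb and Ier3 r over all 27 was 0.254 and 0.204, with adjusted permutation p of 0.235 and 0.343. In T2106 these markers split the tumours into 13 low and 5 high, and within the 13 no member passed (r of 0.362 for Fos and −0.216 for Egr1, adjusted permutation p = 0.692 for both).

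**Figure D4:**
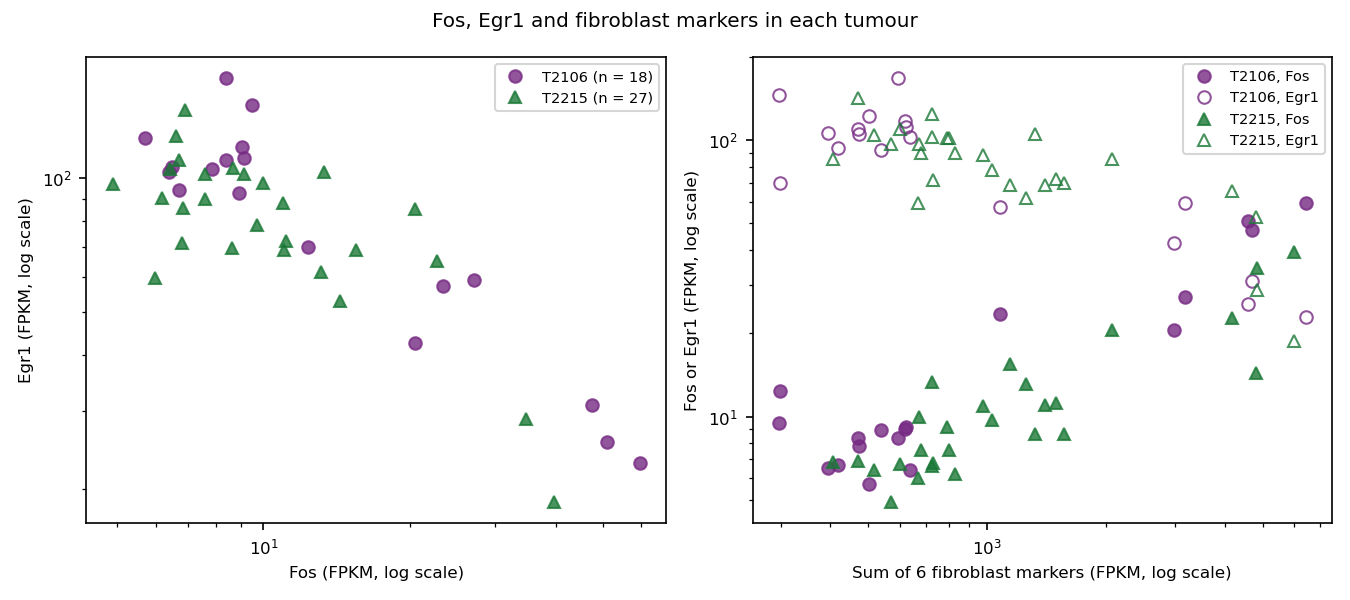
Left, Egr1 against Fos in FPKM (both axes log) in 18 T2106 tumours (circles) and 27 T2215 tumours (triangles); right, Fos (filled) and Egr1 (open) against the summed FPKM of 6 fibroblast markers (log axes). Tumours with the highest Fos (59.5 FPKM in T2106, 39.6 FPKM in T2215) have the lowest Egr1 (22.9 and 18.7 FPKM) and the highest fibroblast sum of their experiment (6422 and 5983 FPKM).

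Related genes were read from lists of pathway members, each list counted in serplulimab + HLX53 10 mg/kg against vehicle, where 44.0% of all genes passed. Among 10 other AP-1 and small Maf subunits 3 were higher and 2 lower. Fosl1, a Fos-family subunit, fell by 2.02 on the log2 scale, from a mean of 150 to 39.4 FPKM (limma adjusted p = 0.0269). Batf, an AP-1 factor of lymphocytes, rose by 1.80 (limma adjusted p = 0.0161), and Atf2 fell by 0.79 (limma adjusted p = 0.0122). Fos and its relative Fosl1 thus moved in opposite directions in the same tumours.

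Of 12 other immediate early transcription factors 4 were higher and 3 lower. Nr4a2 fell by 1.30 and its paralogue Nr4a3 rose by 1.18, and Klf4 fell by 1.05 (limma adjusted p of 0.012, 0.0176 and 0.0215). Among 9 upstream SRF, ternary complex and CREB factors 1 was higher, Crem (0.91), and 3 were lower, with Elk3 at −0.82 and Atf1 at −0.73. Of 18 feedback phosphatases and inhibitors 6 were higher and 5 lower. Dusp6, a phosphatase specific for ERK, fell by 0.74 (limma adjusted p = 0.0094) and Spry4 fell by 2.00 (limma adjusted p = 0.0133), while Zfp36, which destabilises short-lived mRNAs, rose by 0.96 (limma adjusted p = 0.0167).

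Among 6 EGF family genes, the receptor Egfr rose by 2.84 and the ligands Btc and Hbegf fell by 2.35 and 1.58 (limma adjusted p of 0.0113, 0.0307 and 0.0467). Of 11 AP-1 target genes 5 were higher and 1 lower. The largest changes among those named were Mmp9 (5.31), Mmp3 (3.20) and Hmox1 (2.87), with limma adjusted p of 0.0113, 0.0111 and 0.00305. Of 11 stress and growth arrest genes 1 passed, Gadd45b, which rose by 0.93 (limma adjusted p = 0.0118). The medians of these lists lay between −1.16 (EGF family) and 0.94 (AP-1 targets), beside −0.04 for all genes. With serplulimab + HLX53 5 mg/kg, where 1.02% of all genes passed, Gadd45b (1.32), Hmox1 (3.12) and the chaperone Hspa1b (1.96) did. Of the cell type markers, the neutrophil genes S100a8, S100a9 and Retnlg passed there.

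**Figure D5:**
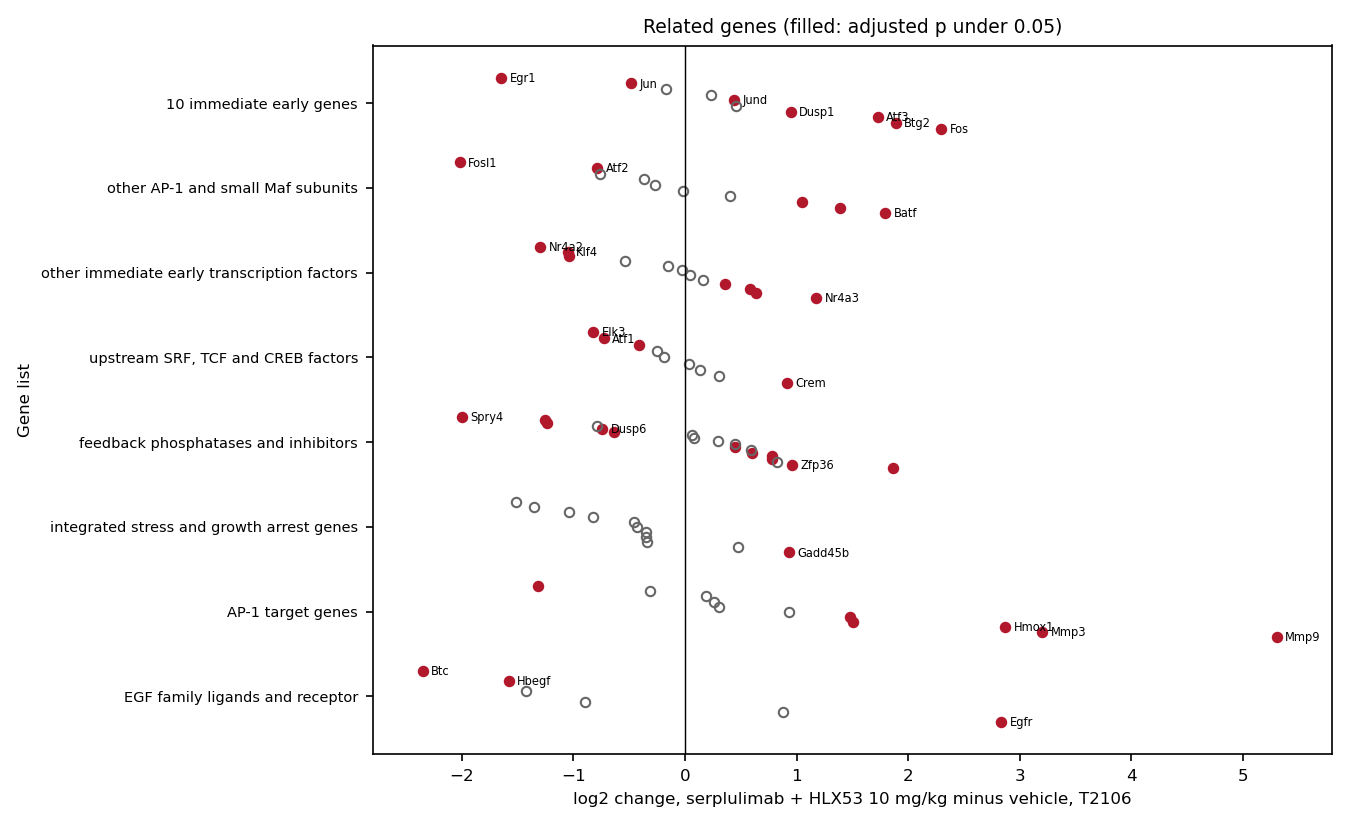
Log2 change (x axis, serplulimab + HLX53 10 mg/kg minus vehicle, T2106, 3 tumours a group) of the 10 immediate early genes and of 7 related lists (rows); filled points passed an adjusted p of 0.05 by limma and open points did not, and in the related lists up to 3 points with the smallest adjusted p carry names. Filled points lie on both sides of 0 in 7 of the 8 rows; the stress row has 1, Gadd45b at 0.93.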

How the data were processed

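Total RNA of 45 CT26 tumours was sequenced as paired-end reads of 150 bases, per the labels' protocols. FastQC, Trimmomatic, Bowtie and STAR are listed in the submitters' processing notes, with mm10, hg19 and GRCh37 as builds; no source used here gives the quantifier. The deposited values are log2 FPKM, normalised separately in each experiment by the authors. Values were converted to FPKM, and tests ran on log2(FPKM + 0.5), a scale that understates the change of low genes. The library sums ran from 678636 to 911201 FPKM. Read depth is unknown, so no counting interval is given.

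Genes with 0.5 FPKM or more in 3 libraries were fitted with limma 3.58.1 (R 4.3.3), all groups of an experiment together, without a replicate block, with a trend and Benjamini-Hochberg adjustment over all genes tested; the threshold was 0.05. There were 18 comparisons. The code was tested on simulated data. Relations used permutation tests of 100000 resamples that shuffled tumours across groups, so differences between groups enter their p-values. The 10 genes were reported in all groups. From each related list, up to 3 genes with the smallest adjusted p past the threshold were named, and for Fos and Egr1 the 5 most similar genes in T2215. The members, lists and tests were chosen with earlier results of these data known. Promoter sequences are from RefSeq (GRCm38.p6) and gene positions from GENCODE. The alternatives tried were other pseudocounts, no filter, median centring, smaller fits, a replicate block and leaving out tumours; 5 more were added after seeing the data.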

Additional observations from a re-analysis of the deposited data

How the results depend on the processing

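The 10 genes were retested in all 18 comparisons under each alternative, and no called change reversed its sign. In serplulimab + HLX53 10 mg/kg against vehicle (T2106), 7 members passed, where 44.0% of all genes did. Without the filter on low values it was 4, against 7.27% of the 47729 genes then tested. With the fibroblast marker mean as a covariate it was 0, against 0.0265%. That covariate does not overlap between these groups and takes up the treatment contrast, so the latter count tests neither. Leaving out single tumours gave 0 to 7 there, while 3.35% to 49.1% of all genes passed. At 5 mg/kg, where 1 passed against 1.02% of all genes, a fit of only the groups compared gave 0, against 0%. Leaving out single tumours gave 0 to 6 at that dose, while 0.0796% to 40.4% of all genes passed. Between the doses, leaving out single tumours gave 0 to 4, while 0.00664% to 38.9% of all genes passed. Leaving out the library with muscle markers gave 4, against 38.9%. For serplulimab in T2215 leaving out single tumours gave 0 to 1, the 1 being Jund (0.60) without replicate 2, where 9.35% of all genes passed. The cause was not tested. In the other comparisons the count stayed at 0. Median centring changed the all-gene split at 5 mg/kg from 53 higher and 101 lower to 62 and 18. Same-numbered tumours did not deviate together: the mean correlation was −0.02 in both experiments, and 7 of 18 and 10 of 27 libraries correlated best with their own number. With the replicate number as a block, 7 members passed at 10 mg/kg (38.2% of all genes), 1 at 5 mg/kg (0.259%) and 0 elsewhere. With 3 tumours a group, intervals of single genes were wide.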
